A study of Equus caballus with 26 samples.

Results

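The interleukin-1 (IL-1) and interleukin-18 (IL-18) ligands and receptors were followed in horse blood before and after a 160 km endurance ride. The 9 genes were chosen by name: the ligands *IL1A*, *IL1B* and *IL18*, the receptor antagonist *IL1RN*, the receptors *IL1R1*, *IL1R2* and *IL18R1*, and the accessory chains *IL1RAP* and *IL18RAP*. This choice was made with earlier results of these data known. All 9 were found on the array by its own gene names. They had 32 probes under 10 gene names, of 24415 gene names on the array, since IL-1RII is a second name of *IL1R2* there. For each gene, the brightest probe on average stood for the gene.

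Whole blood was drawn into tubes that stabilise RNA, its total RNA was labelled with Cy3, and each sample was hybridised to an equine Agilent array of a single colour. The 26 arrays came from 23 horses, whose breed the labels give as "Autre". T0 was the sample at rest before the ride and T1 the sample taken just after it. The training set held 3 geldings, numbered 2, 32 and 41, each with an array at T0 and at T1. They belong to the set that the study calls experimental, and the other horses of both of its sets were not analysed here. The validation set held 7 horses at T0 (3 females and 4 geldings) and 13 other horses at T1 (3 females and 10 geldings), so that its groups differ in horses as well as in time. By the study's methods all horses sampled only at T1 finished the ride, whereas most of those sampled only at T0 were later eliminated from it, and the labels do not give the outcome of each horse. Outcome and time therefore cannot be told apart in that set. No horses kept at rest until the later time were analysed here, so that the ride, transport, time of day and all else that separates T0 from T1 cannot be told apart. Blood is a mixture of cells, and fewer cells of a type cannot be told apart from less RNA per cell.

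IL-1 signals when IL-1 alpha or IL-1 beta binds the receptor IL1R1 and the pair recruits the accessory chain IL1RAP, after which MYD88 and the IRAK kinases switch on NF-kappaB and the MAP kinases. The signal is held back by IL1RN, which occupies IL1R1 without recruiting the accessory chain, and by IL1R2, a decoy that binds IL-1 and can hold IL1RAP but lacks a signalling tail. IL-18 works in the same way through IL18R1 and IL18RAP, and both IL-1 beta and IL-18 are made as precursors that caspase-1 cuts in the inflammasome. In blood, neutrophils and monocytes are known sources of the IL-1 receptors, and IL1R2 is known as a gene that glucocorticoids switch on.

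The probes of the genes that changed most are shown because each measured a short stretch of its mRNA, and several overlap. Letters are printed 5′ to 3′ as on the array, and capitals mark bases that a probe shares with its neighbour. The 2 probes of *IL1R2* differ in length (a 50-mer and a 60-mer) and share 39 bases.
IL1R2, probe Oligo-168: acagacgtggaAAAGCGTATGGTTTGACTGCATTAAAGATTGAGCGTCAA
IL1R2, probe A_69_P000011: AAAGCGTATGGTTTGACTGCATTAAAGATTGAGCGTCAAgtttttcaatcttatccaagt
The array files place the 60-mer at chr15:4173797-4173856 on the minus strand of the EquCab1 build. The 3 probes of *IL1RAP* tile 1 stretch in steps, each sharing 30 bases with the next.
IL1RAP, probe A_69_P030178: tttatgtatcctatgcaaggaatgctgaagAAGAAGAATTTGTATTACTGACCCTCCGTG
IL1RAP, probe A_69_P030177: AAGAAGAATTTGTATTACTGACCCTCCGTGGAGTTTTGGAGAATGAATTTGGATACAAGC
IL1RAP, probe A_69_P030176: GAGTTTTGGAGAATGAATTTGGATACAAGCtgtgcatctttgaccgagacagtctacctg
They lie at chr19:24181381-24181440, chr19:24181411-24181470 and chr19:24181441-24181500 on the plus strand. The 2 probes of *IL18* share no bases end to end, so that they read separate stretches of the mRNA.
IL18, probe A_69_P000751: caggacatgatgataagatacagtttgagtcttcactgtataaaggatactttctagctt
IL18, probe Oligo-164: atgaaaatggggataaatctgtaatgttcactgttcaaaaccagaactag
The first is placed at chr7:17314944-17315003 on the minus strand. The genome annotation of that build was not used here, so exons are not given.

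The receptors, the accessory chains and *IL18* were higher after the ride and passed the test in at least 1 set, and *IL1B* and the antagonist *IL1RN* did not pass the test in either set. In the training set, 5 of 8 members tested rose and none fell, where 6.16% of all gene names tested rose and 3.95% fell (limma, adjusted p under 0.05). Of the same 8, 6 rose in the validation set and none fell, where 20.3% of all gene names rose and 23.9% fell. The median change of the 8 members was 1.69 on the log2 scale in the training set and 1.94 in the validation set, beside 0.03 and -0.07 over all gene names tested. As the members were chosen with earlier results of these data known, these contrasts describe the members and do not test them as a group. The training calls were 2 of 8, *IL1R2* and *IL1RAP*, without horse 2 or without horse 32, and 0 of 9 with no filter on dim probes. With no filter the change of *IL1R2* was again 6.30 (limma adjusted p = 0.0599), and 1 of 65 pathway genes counted below was called. The shares of all gene names called in these settings are not given, so that the lower counts say nothing particular to the members. *IL1A* was not tested, since none of its 4 probes was well above background on any array. Levels below are log2 signals minus the 75th percentile of the array, differences are T1 minus T0 on that scale, and levels of different probes are not compared.

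**Figure D1:**
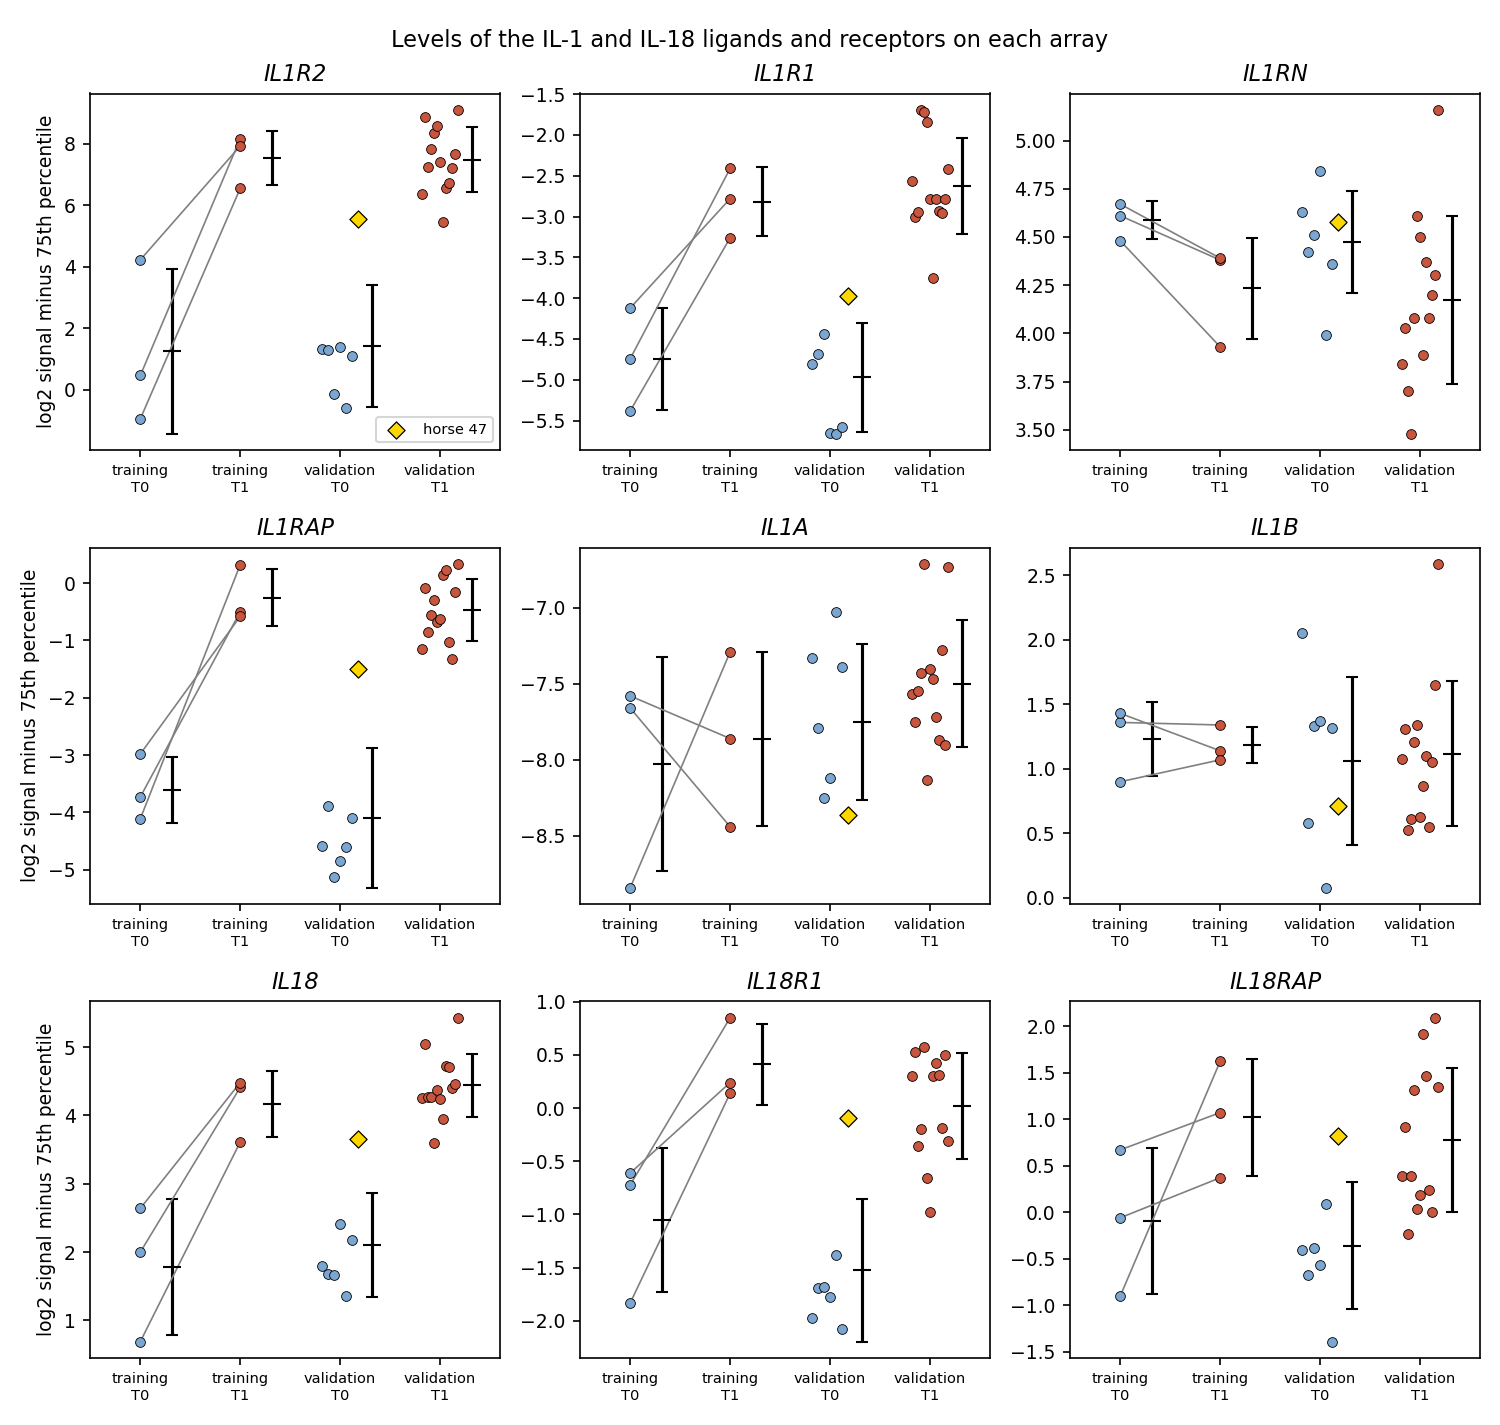
Levels on each array (y axis, log2 signal minus the 75th percentile of the array) in the 4 groups (x axis); points are horses, lines join the arrays of a training horse, and black bars give the mean and SD of the group (n = 3, 3, 7 and 13). Every T1 point lies above every T0 point of its set for *IL1R1* and *IL1RAP*, and the gold diamond of horse 47 lies above the other 6 validation T0 horses for 6 of the 8 genes tested.

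*IL1R2*, the decoy receptor, had the largest change of the 9 genes. Its level went from 0.46 to 8.16 in horse 2, from -0.95 to 6.54 in horse 32 and from 4.22 to 7.92 in horse 41. All 3 horses were higher at T1, and horse 41, which started highest, rose least, by 3.70. Among the validation horses the level was -0.59 at the lowest, 1.28 at the median and 5.56 at the highest at T0, and 5.44, 7.39 and 9.10 at T1. These groups overlapped in 1 horse only, since the highest T0 level (horse 47) was above the lowest T1 level (horse 24). The change was 6.30 in the training set (SE 0.69, 78.9-fold, limma adjusted p = 0.00249) and 6.06 in the validation set (SE 0.62, 66.9-fold, adjusted p = 1.34e-06). On 1 of the 13 T1 arrays, that of horse 34, the probe was saturated, so that its level of 6.55 is a lower limit, and without this horse the change was 6.14.

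The spread of *IL1R2* between horses at rest depended on 1 horse in each set. The SD was 2.68 at T0 and 0.87 at T1 in the training set (n = 3 each), and 1.99 at T0 (n = 7) and 1.07 at T1 (n = 13) in the validation set. Without horse 41, which had the highest training level at rest (4.22), it was lower at T0 than at T1 (1.14, n = 2). Without horse 47 (5.56) it was 0.86 at T0 in the validation set, below that at T1. The second gene name of *IL1R2*, read by the 50-mer printed above, changed by 6.33 in the training set and by 6.13 in the validation set. As the probes share most of their bases, they are not separate evidence.

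*IL1R1*, the receptor that passes the IL-1 signal on, also rose. Its level went from -4.12 to -2.78 in horse 2, from -5.38 to -3.26 in horse 32 and from -4.74 to -2.41 in horse 41. Of the validation horses, the T0 horses ran from -5.66 to -3.97 with a median of -4.81, and the T1 horses from -3.75 to -1.69 with a median of -2.78. No T1 horse overlapped a T0 horse in either set, which held for 17.8% of gene names in the training set and for 1.45% in the validation set. The change was 1.93 (SE 0.34, adjusted p = 0.0147) and 2.34 (SE 0.27, adjusted p = 3.94e-06), or 3.80-fold and 5.08-fold. Its second probe changed less, by 1.54 and 1.32, and passed the threshold in both sets. *IL1R1* was well above background on all arrays but dim, and its change was 0.73 and 0.99 when signals were corrected with normexp and quantile normalised, past the threshold in both sets.

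*IL1RAP*, the accessory chain that completes the IL-1 receptor and that the decoy can also hold, had the second largest change. It went from -4.11 to 0.32 in horse 2, from -3.73 to -0.50 in horse 32 and from -2.98 to -0.58 in horse 41. Among the validation horses it ranged from -5.13 to -1.50 at T0 (median -4.59) and from -1.33 to 0.34 at T1 (median -0.55), again with no overlap. The change was 3.36 (SE 0.42, 10.3-fold, adjusted p = 0.00411) and 3.63 (SE 0.36, 12.4-fold, adjusted p = 1.11e-06). The 3 tiled probes printed above changed by 3.35 to 3.88 in the training set and by 3.41 to 3.63 in the validation set. With normexp and quantile normalisation the change was 2.06 and 1.89, past the threshold in both sets. It was then below that of *IL18* (2.10 and 2.11), so that its rank depended on the scaling.

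**Figure D2:**
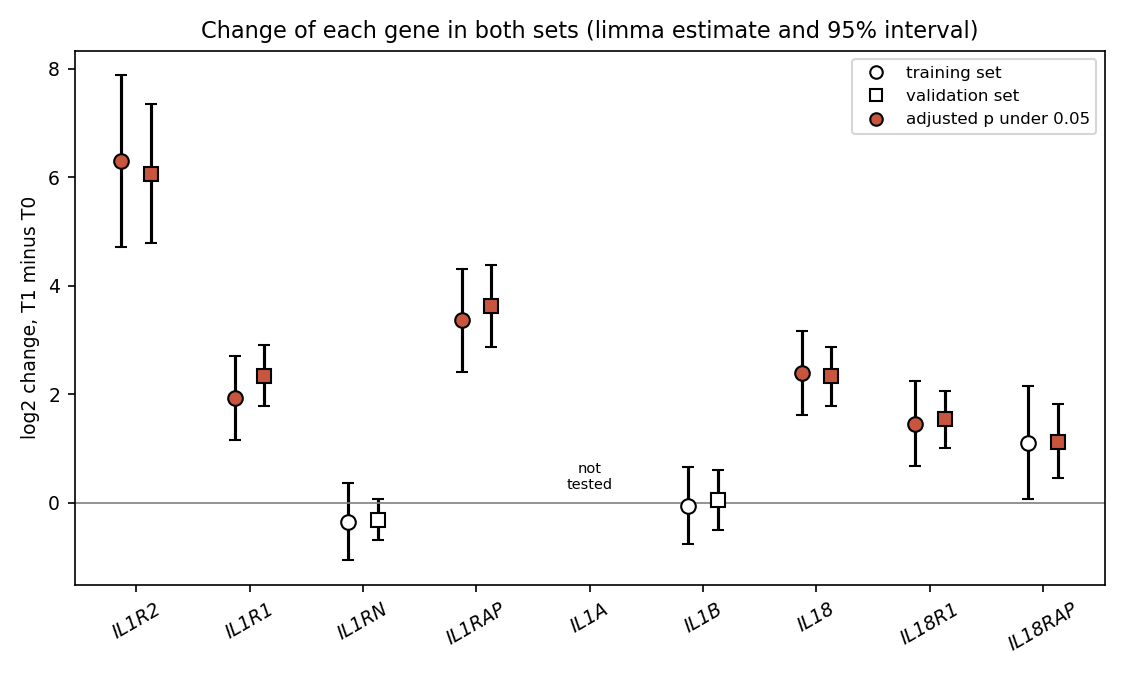
Change of each gene (y axis, log2, T1 minus T0) in the training set (circles, 3 horses sampled at both times) and the validation set (squares, 7 and 13 horses); bars are 95% intervals of the limma estimate and filled symbols passed an adjusted p of 0.05. *IL1R2*, *IL1R1*, *IL1RAP*, *IL18* and *IL18R1* were past the threshold in both sets, *IL18RAP* in the validation set, and *IL1RN* and *IL1B* in neither.

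*IL1RN*, which encodes the receptor antagonist, did not pass the threshold in either set. Its level was 4.61, 4.67 and 4.48 at T0 and 4.38, 4.39 and 3.93 at T1 in horses 2, 32 and 41. All 3 training horses were lower at T1, by 0.23 to 0.56, and the T1 levels lay below the T0 levels without overlap, as they did for 17.7% of gene names in that set. In the validation set the level was 4.51 at the median of T0 (3.99 to 4.84) and 4.08 at the median of T1 (3.48 to 5.16), with much overlap. The change was -0.35 in the training set (95% interval -1.06 to 0.36, adjusted p = 0.482) and -0.31 in the validation set (95% interval -0.68 to 0.07, adjusted p = 0.184).

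The call for *IL1RN* in the validation set depended on the scaling. It was -0.55 with quantile normalisation (adjusted p = 0.00566), -0.56 with normexp and quantile normalisation (adjusted p = 0.00311) and -0.54 with the deposited series values (adjusted p = 0.00474), each past the threshold. In the training set it was past the threshold with normexp and quantile normalisation, at -0.79 (adjusted p = 0.0358). No scaling gave a rise.

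*IL1RN* had 11 probes, and 9 of them are placed across a gap in the genome, their 60 bases lying over 1203 bases of the genome (the first pair at chr15:12624275-12625477, plus strand, EquCab1). These 9 come in a pair of versions, 5 probes of one and 4 of the other, that differ by A15T and A16T, counted from 1 at the 5′ end of the first version printed here. Capitals mark these bases.
IL1RN, probe A_69_P004860: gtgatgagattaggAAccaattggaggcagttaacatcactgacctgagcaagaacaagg
IL1RN, probe A_69_P004885: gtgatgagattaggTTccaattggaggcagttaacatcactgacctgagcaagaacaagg
Both changed by -0.19 in the training set, and by -0.34 and -0.24 in the validation set. All 11 probes were lower at T1 in both sets, by 0.08 to 0.35 and by 0.11 to 0.34, and none of them passed the threshold, where 12.8% and 47.3% of all probes tested did. Overlapping probes on the same arrays are not replicates.

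*IL1B*, the main IL-1 ligand of blood leukocytes, did not pass the threshold in either set. Its level was 1.36 and 1.34 in horse 2, 1.43 and 1.14 in horse 32, and 0.90 and 1.07 in horse 41, at T0 and T1. Validation horses ranged from 0.08 to 2.05 at T0 (median 1.32) and from 0.53 to 2.59 at T1 (median 1.08), so that the groups covered each other. The change was -0.05 in the training set (95% interval -0.76 to 0.67, adjusted p = 0.937) and 0.05 in the validation set (95% interval -0.50 to 0.60, adjusted p = 0.887). The intervals leave room for changes of about the SD between horses, which was 0.65 at T0 and 0.56 at T1 in the validation set. The 5 probes of *IL1B* changed by -0.61 to -0.05 in the training set and by -0.09 to 0.05 in the validation set, none past the threshold.

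*IL1A*, which encodes the other IL-1 ligand, was not well above background on any of the 26 arrays with any of its 4 probes. Whether it changed was not detectable on these arrays.

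**Figure D3:**
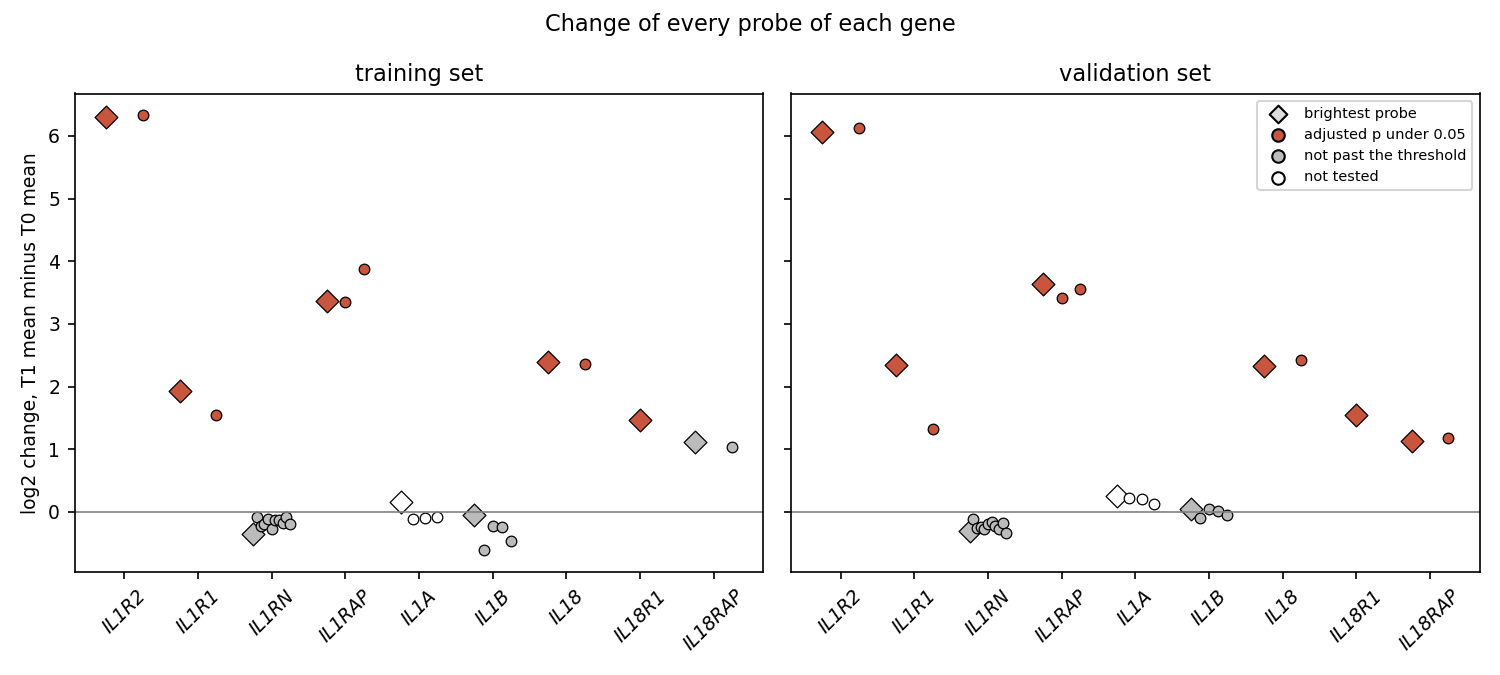
Change of each of the 32 probes of the 9 genes (y axis, log2, T1 mean minus T0 mean) in the training set (left) and validation set (right); diamonds are the brightest probe of a gene, red symbols passed an adjusted p of 0.05 over all probes, grey ones did not and white ones were not tested. The widest gap between probes of a gene is that of the 2 probes of *IL1R1* in the validation set (2.34 and 1.32). In the training set the probes of *IL1B* ran from -0.61 to -0.05, with the brightest at -0.05, and those of *IL1RAP* from 3.35 to 3.88. The 4 probes of *IL1A* are all untested.

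*IL18* was the ligand that rose. Its level went from 2.00 to 4.41 in horse 2, from 0.69 to 3.61 in horse 32 and from 2.64 to 4.48 in horse 41. The validation horses had a median of 1.80 at T0 (1.36 to 3.65) and of 4.37 at T1 (3.59 to 5.43). The validation groups overlapped only through the highest T0 horse, horse 47. The change was 2.39 in the training set (SE 0.34, 5.24-fold, adjusted p = 0.00639) and 2.33 in the validation set (SE 0.26, 5.03-fold, adjusted p = 3.33e-06). The 50-mer of *IL18*, on a stretch apart from the first, changed by 2.36 and 2.42.

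*IL18R1*, which binds IL-18, rose in both sets with a single probe. Its level went from -1.83 to 0.14 in horse 2, from -0.72 to 0.85 in horse 32 and from -0.61 to 0.24 in horse 41. Among the validation horses it ranged from -2.08 to -0.09 at T0 (median -1.69) and from -0.98 to 0.57 at T1 (median 0.30). Of the T1 horses, 6 were below horse 47 at T0, and none was below the other 6 T0 horses. The change was 1.46 (SE 0.34, 2.76-fold, adjusted p = 0.0353) and 1.54 (SE 0.25, 2.91-fold, adjusted p = 7.89e-05). Without the pairing of horses in the training set, its adjusted p was 0.0515.

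*IL18RAP*, the accessory chain of the IL-18 receptor, was called in the validation set only. It went from -0.90 to 1.62 in horse 2, from 0.67 to 1.07 in horse 32 and from -0.06 to 0.37 in horse 41. The mean training change was 1.11 (SE 0.46, adjusted p = 0.144). It was 0.41 without horse 2 (adjusted p = 0.549) and 1.46 without horse 41 (adjusted p = 0.0344). The validation horses had a median of -0.41 at T0 (-1.39 to 0.82) and of 0.39 at T1 (-0.23 to 2.09), with wide overlap. The change there was 1.13 (SE 0.33, 2.19-fold, adjusted p = 0.00799), and it was 0.74 with scan day as a further term (adjusted p = 0.0961). The 2 probes, which share 27 bases, changed by 1.04 and 1.11 in the training set and by 1.13 and 1.18 in the validation set.
IL18RAP, probe A_69_P057922: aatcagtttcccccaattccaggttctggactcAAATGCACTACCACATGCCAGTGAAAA
IL18RAP, probe A_69_P057921: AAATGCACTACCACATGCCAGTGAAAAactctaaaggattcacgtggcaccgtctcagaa
They lie at chr15:3761914-3761973 and chr15:3761881-3761940 on the minus strand, and capitals mark the shared bases.

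The decoy and the antagonist were set against the signalling members on each array. The difference between 2 probes has no meaning of its own, and only its shift between times is read, as a description with no test. *IL1R2* minus *IL1R1* was 5.99 ± 2.58 at T0 and 10.36 ± 0.57 at T1 in the training set (SD, n = 3). The shift was 6.37 in horse 2, 5.38 in horse 32 and 1.37 in horse 41, so that all 3 shifted toward the decoy, the last of them least. In the validation set it was 6.39 ± 1.67 at T0 (SD, n = 7) and 10.11 ± 0.85 at T1 (SD, n = 13). The highest T0 value (9.53) lay above the lowest T1 value (8.91), and the mean shift was 3.72.

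The antagonist was set against its ligand in the same way. *IL1RN* minus *IL1B* was 3.36 ± 0.20 at T0 and 3.05 ± 0.20 at T1 in the training set (SD, n = 3), and 3.41 ± 0.51 and 3.05 ± 0.37 in the validation set (SD, n = 7 and 13). The groups overlapped in both sets, and the shift was -0.21 in horse 2, 0.02 in horse 32 and -0.73 in horse 41. *IL18* minus *IL18R1* shifted by 0.93 and 0.79 in the 2 sets, and was higher at T1 in all 3 training horses. *IL18RAP* minus *IL18R1* shifted by -0.35 and -0.41, with 1 training horse up and the others down.

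The changes were not shown to differ between the sets for any member. A fit of all 26 arrays called 0 of 8 members and 0% of 19411 gene names for the difference (limma, adjusted p under 0.05). None of the 8 members and 0.814% of gene names had an unadjusted p under 0.05. The training minus validation difference was 0.24 for *IL1R2* (95% interval -2.68 to 3.15), -0.42 for *IL1R1* (95% interval -1.58 to 0.74) and -0.27 for *IL1RAP* (95% interval -1.76 to 1.22). For *IL18* it was 0.06 (95% interval -1.15 to 1.26). These intervals are wide, and the sets are not shown to be alike.

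Horse 47, a gelding of the validation set sampled at rest, stood apart from the other 6 T0 horses. It had the highest T0 level of 6 of the 8 members tested, the 6 that were higher at T1. Its *IL1R2* level was 5.56, with the other 6 between -0.59 and 1.38. Its *IL1RAP* level was -1.50, with the others between -5.13 and -3.88. Its *IL18* level was 3.65, with the others at 2.41 or below. Its *IL1RN* level (4.58) and *IL1B* level (0.71) lay within the range of the others. Without horse 47, all T1 horses lay above all T0 horses for 5 of the 8 members, where 6.58% of gene names did so, and with it for 2 of 8, where 1.45% did. As this horse had the highest T0 level of 6 of these members, leaving it out favours their separation and raises their changes. The contrast with 6.58% is therefore no test of the members. The change of *IL1R2* was 6.75 and that of *IL1RAP* 4.06 without this horse, and the number of members called was again 6.

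Markers of blood cell types moved in the same samples. The counts below stand beside 6.16% of gene names that rose and 3.95% that fell in the training set, and 20.3% and 23.9% in the validation set. Of 8 neutrophil markers tested, 5 rose in the training set and 6 in the validation set. The log2 of their summed signals ranged from 7.04 to 9.34 at T0 and from 8.62 to 10.77 at T1 in the validation set. Summed levels below are given in the same way, and the brightest markers of a list weigh most in them. The highest T0 value, 9.34, was again that of horse 47, with the other 6 between 7.04 and 7.56. This horse was also above the other 6 at T0 for the immature neutrophil granule markers (3.93, others 0.66 to 2.58), the monocyte markers (8.67, others 7.76 to 8.52) and the erythroid markers (8.35, others 3.66 to 7.28). It was below them for the T cell markers (4.47, others 5.17 to 5.72), the NK cell markers (2.88, others 3.55 to 5.71) and the basophil and eosinophil markers (2.05, others 2.65 to 3.75). Horse 41, with the highest training *IL1R2* level at rest, was the highest of its group at T0 for the neutrophil markers (8.86, lowest 6.31). Like horse 47, it was also the highest for the monocyte markers (8.48, lowest 8.09) and the lowest for the T cell markers (5.16, highest 5.85). Unlike horse 47, it was the highest for the NK cell markers (4.15, lowest 3.69) and the lowest for the erythroid markers (3.61, highest 6.44). For the immature neutrophil granule markers (1.62, highest 1.63) and the basophil and eosinophil markers (2.81, range 1.94 to 4.64) it was neither highest nor lowest. Of 4 markers of immature neutrophil granules, 3 rose in both sets. Of 7 monocyte markers 3 rose and 1 fell in both sets, and their summed level ranged from 7.76 to 8.67 at T0 and from 8.45 to 9.76 at T1 in the validation set. Of 11 T cell markers 10 fell in the validation set, from a summed level between 4.47 and 5.72 to one between 3.70 and 4.66, and of 7 B cell markers 6 fell. Of 8 NK cell markers 5 fell and 1 rose there, and of 4 basophil and eosinophil markers tested 3 fell. In the training set 7 of the 11 T cell, 3 of the 7 B cell and 4 of the 8 NK cell markers fell. So did 3 of 5 basophil and eosinophil markers tested there, and no marker of these 4 lists rose in that set. None of the 2 platelet markers tested passed the threshold, and 1 of 4 erythroid markers rose. *CXCR1* and *FPR1* of the neutrophil list had no named probe here, and *SLC4A1* of the erythroid list was above background on no array. The part of these cell types in the changes of the receptors was not tested.

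Of the 7 scan days of the validation set 5 held both times, and of its 15 slides 3 did, so that most slides held 1 time. On the 5 scan days that held both times, T1 was higher on all 5 for *IL1R2* (by 5.17 to 7.99), *IL1R1* (by 1.95 to 3.24), *IL1RAP* (by 2.02 to 4.51), *IL18* (by 1.70 to 2.89) and *IL18R1* (by 0.23 to 2.18). *IL18RAP* was higher on 4 of 5 days (-0.04 to 1.93). *IL1RN* and *IL1B* were higher on 2 of 5 days each. On the 3 slides that held both times, T1 was higher on all 3 for *IL1R2* (by 3.03 to 6.67), *IL1R1* (by 1.70 to 2.69), *IL1RAP* (by 0.83 to 4.05) and *IL18* (by 0.71 to 2.81). *IL18R1* (-0.57 to 1.98) and *IL18RAP* (-0.79 to 0.70) were higher on 2 of the 3. The values below 0 came from the same slide, which held 1 array at each time. They match the levels of horse 47 at T0 (*IL18R1* -0.09, *IL18RAP* 0.82) and horse 19 at T1 (-0.66 and 0.03). The lowest values of *IL1R2*, *IL1RAP* and *IL18* were on that slide too, and that of *IL1R1* was not. The part of horse 47 in these values was not tested. No training horse had both of its arrays on 1 slide or in 1 scan day.

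Across the 13 validation horses at T1, the members were compared in 28 pairs. One pair passed the adjusted threshold: *IL1RAP* and *IL18RAP*, the accessory chains, had r = 0.809 and rho = 0.808 (permutation test, two-sided, p = 0.00133 and 0.00145, adjusted p = 0.0372 and 0.0406). Without the 2 horses farthest from the median of *IL1RAP*, r was 0.802. Without horse 34, whose array was scanned in a single pass, no pair passed, and with quantile normalisation 3 did. *IL1RN* and *IL1B* had r = 0.748 and rho = 0.632 (permutation test, p = 0.0049 and 0.0233, adjusted p = 0.0686 and 0.261). Without the 2 horses farthest from the median of *IL1RN*, r was 0.350. Leaving out the extremes narrows the range and can lower r by itself. *IL1R2* and *IL1R1* had r = 0.604 and rho = 0.412 (permutation test, adjusted p = 0.201 and 0.57), with r = 0.430 without the 2 farthest horses, and the *IL1R2* level of horse 34 is a lower limit here too. Horse 62 had the highest T1 level of 5 members, among them *IL1R2* (9.10), *IL1B* (2.59) and *IL1RN* (5.16).

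**Figure D4:**
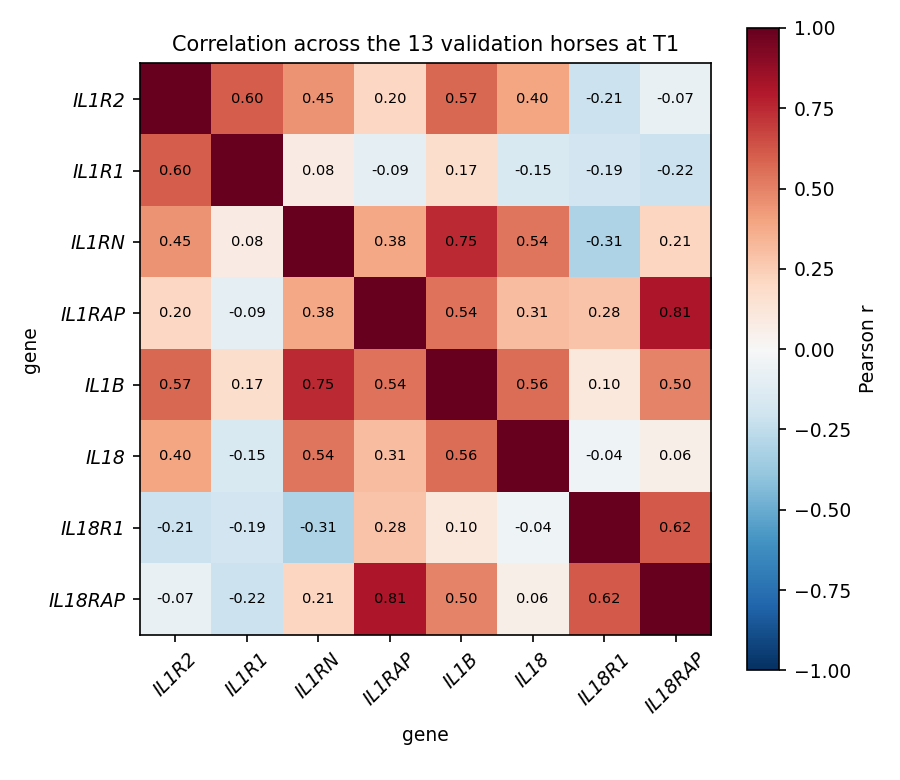
Pearson r between the levels of each pair of the 8 genes measured on every array, over the 13 validation horses at T1; both axes list the genes and colour runs from -1 to 1. The pair *IL1RAP* and *IL18RAP* (0.81) is the highest, and it was the one pair past the adjusted threshold.

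Over all 26 arrays, the 5 genes with a symbol whose level was most like that of *IL1R2*, of 11644 compared, were *MMP27* (r = 0.984), *MAP3K4* (r = 0.979), *SLC30A1* (r = 0.972), *SERPINB1* (r = 0.972) and *FKBP5* (r = 0.971). *FKBP5* is a textbook glucocorticoid target, *SERPINB1* an inhibitor of neutrophil proteases, *MMP27* a matrix metalloproteinase, *SLC30A1* a zinc exporter and *MAP3K4* a kinase of the stress pathways. These values mix both times and so follow the change between them. They include the saturated value of horse 34. Over the 13 validation horses at T1 alone, r with *IL1R2* was 0.874 to 0.883 for the 5 genes. Those arrays are among the 26 by which the genes were picked. Among the members, *IL18* (r = 0.953), *IL1RAP* (r = 0.938) and *IL1R1* (r = 0.904) came nearest to *IL1R2* over the 26 arrays. They ranked 42, 100 and 247 of the genes compared, and all points share arrays and scaling. Over the 13 validation horses at T1 alone, r with *IL1R2* was 0.398 for *IL18*, 0.205 for *IL1RAP* and 0.604 for *IL1R1*.

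Other genes of the pathway were counted from 4 lists, each count beside the same shares of all gene names (6.16% rose and 3.95% fell in the training set, 20.3% and 23.9% in the validation set). The training calls depended on single horses. Of the 10 pathway genes called there, 1 (*FOS*) was called without horse 2, 2 (*FOS* and *PELI1*) without horse 32 and all 10 without horse 41, and 1 (*FOS*) with no filter on dim probes. Of 13 other ligands, receptors and inhibitors of the IL-1 family, only 4 were tested in each set, since most were dim. None of the 4 passed in the training set. Among the validation horses 1 of the 4 fell and none rose. That one was *SIGIRR*, a receptor that dampens IL-1 and IL-18 signals, which changed by -1.04 (adjusted p = 0.000675). *IL18BP*, the soluble trap of IL-18, changed by -0.27 and did not pass (adjusted p = 0.119). The receptor *IL1RL1* was well above background in neither group of the validation set.

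Of the inflammasome genes, 4 rose and 3 fell among 14 tested in the validation set, and 2 rose and 1 fell in the training set. The validation counts are near the shares over all gene names. The sensors *NLRC4* and *NAIP*, which work as a pair against bacterial proteins, rose by 1.71 and 1.69 in the validation set and by 1.74 and 2.08 in the training set (each adjusted p at most 0.0159). *AIM2*, a sensor of DNA, fell by 1.42 in the validation set (adjusted p = 0.000808) and by 1.52 in the training set (adjusted p = 0.027). *GSDMD*, whose cleaved form opens the pore through which IL-1 leaves the cell, rose by 0.92 in the validation set (adjusted p = 8.25e-05). *MEFV*, which encodes pyrin, rose by 0.59 there, and *PYCARD*, the adaptor of the inflammasome, fell by 0.57. *CASP1*, the protease that cuts both precursors, changed by 0.08 (adjusted p = 0.756) and *NLRP3* by 0.05 (adjusted p = 0.892) in the validation set, neither past the threshold. The last 2 genes are named outside the rule, as the enzyme and sensor of the pathway. The median of this list was 0.06.

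Of the genes that carry the receptor signal, 9 rose and 2 fell among 22 tested in the validation set, and 3 rose and none fell in the training set. *FOS*, an AP-1 transcription factor, rose by 2.47 (adjusted p = 0.00014) in the validation set and by 3.16 (adjusted p = 0.00199) in the training set, and *JUN*, its partner, by 0.95 and 1.33. The kinase *IRAK2* rose by 1.51 and 2.19. *IRAK4* (1.10), *MAPK14* (1.07) and *TAB2* (0.99) rose in the validation set. In the training set these 3 changed by 0.72, 1.04 and 1.17 and did not pass. The median of the list was 0.25 in the validation set and 0.43 in the training set.

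Of the genes listed as negative regulators, 4 rose and 1 fell among 14 tested in the validation set, and 4 rose and none fell in the training set. The share that rose in the validation set is near that over all gene names. The 4 that rose were the same in both sets. *PELI1*, a ubiquitin ligase that is also known to carry the IL-1 receptor signal, so that its place on this list is open to question, rose by 2.08 and 2.27 in the validation and training sets. *NFKBIA*, the inhibitor of NF-kappaB, rose by 1.70 and 2.39. *IRAK3*, the IRAK that blocks the others, rose by 1.66 and 1.75, and *TANK* by 1.10 and 1.46. *NFKBIB*, a relative of *NFKBIA*, fell by 0.41 in the validation set (adjusted p = 0.013). The median change was 0.20 in the validation set and 0.42 in the training set.

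**Figure D5:**
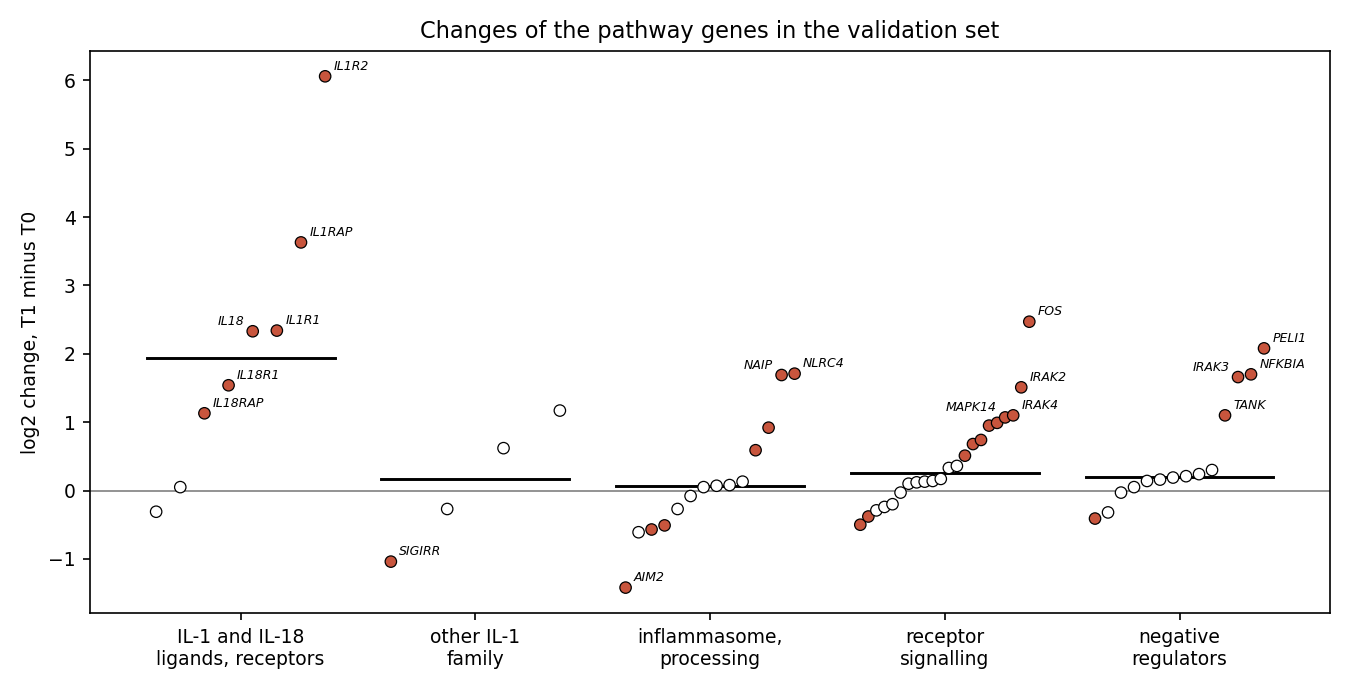
Change of each gene tested in the validation set (y axis, log2, T1 minus T0), by list (x axis); red points passed an adjusted p of 0.05, white ones did not, black lines are the medians and names mark called genes beyond 1 in size. The IL-1 and IL-18 ligands and receptors have a median of 1.94, and the 4 other lists have medians between 0.06 and 0.25. This contrast is no test, since the members and lists were chosen with earlier results of these data known.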

How the data were processed

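Per the file headers, the authors' scans were read by Agilent Feature Extraction 10.7.3.1, which gave each spot a background-corrected intensity that is not normalised between arrays. The deposited table of the series, in log2 values, served as an alternative. From the intensities, log2 was taken and the 75th percentile of each array (8.74 to 9.76) subtracted. Control spots and 386 outlier spots were left out, 431 saturated spots (all on 1 array, of validation horse 34) were kept, and spots of a probe were averaged. On each array 60.2% to 75.3% of probes were well above background. How many arrays there are limits the precision. Gene names were tested if well above background on 3 or more of the 6 training, 7 or more of the 20 validation or 3 or more of all arrays, with limma 3.58.1 in R 4.3.3, adjusted by Benjamini and Hochberg over all gene names at 0.05. The training fit had the horse as a fixed block, the validation fit none, and the difference between sets the horse as a random block (consensus correlation -0.0702).

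The arrays of a training horse are of the same animal by the labels. The correlation of their deviations from the group means was -0.00866 in horse 2, 0.213 in horse 32 and 0.191 in horse 41. Correlations used 100000 permutations in Python 3.11.15 with numpy 2.4.6 and scipy 1.17.1. Symbols came from the array's names, the study's additional files and a table of RefSeq genes. The fits were tested on simulated data: of 100 genes changed by 3 on the log2 scale, 37 were called in the training design, 99 in the validation design and 85 for the difference, and of 100 changed by 1, 0, 59 and 5. False calls numbered 0, 14 and 1, among 17379, 17297 and 19263 genes simulated. The noise was drawn separately for each gene and array from the SD within groups, with no horse effect. Fewer genes were changed than were called in the data of either set, which makes the adjusted threshold harder to pass. These shares therefore need not hold for the data. The genes named are the 9 members, at most 6 called genes with the largest change from each list, and the 5 genes most like *IL1R2*. Outside this rule, *IL18BP*, *IL1RL1*, *CASP1* and *NLRP3* are named from the lists, and *CXCR1*, *FPR1* and *SLC4A1* from the markers. The members and lists were chosen with earlier results of these data known.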

Additional observations from a re-analysis of the deposited data

Results flagged for a closer look

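Horse 47 of the validation set, sampled at rest, lay far from the other 6 horses at T0 for 3 of the 8 members tested this way, with a gap to the next horse larger than Dixon's 95% limit allows for 7 samples. Its *IL1R2* level was 5.56 (gap 68% of the range of the group), its *IL1RAP* level -1.50 (gap 65.6%) and its *IL18R1* level -0.09 (gap 64.7%). Chance alone flags about 5% of groups, and the 3 values come from 1 array, so that they are not independent. Without this horse the change in the validation set was 6.75 for *IL1R2*, 4.06 for *IL1RAP* and 1.78 for *IL18R1*, each past the threshold. Leaving out the highest T0 horse raises such changes by itself. Most of its summed levels of blood cell markers also lay outside the range of the other 6, and their part in these levels was not tested.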

How the results depend on the processing

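The alternatives were quantile normalisation, alone or after normexp (offset 50), the series values as deposited, dropping the filter or applying it on every array, averaging the probes of a gene, all 26 arrays in 1 fit, no replicate block, further terms for scan day, slide or sex, and horses left out. Members called in the validation set numbered 5 to 7, and 0 members differed between the sets under any of them. With no filter in the training set, 0 members and 1 pathway gene were called. Leaving out 1 training horse gave 2 to 6 members and 1 to 14 pathway genes there. No replicate block, in place of the paired fit, gave 4 members and 11 pathway genes in the training set and 0 for the difference. The shares of all gene names called under these alternatives are not given, so that the counts are not set against them. Correlated pairs numbered 3 with quantile normalisation and 0 without horse 34. Of the calls over all gene names in the training set, 60.9% were higher at T1, beside 49.5% with quantile normalisation, 48.2% with normexp and 47.5% with the series values. The cause of these shifts was not tested. The SD of *IL1R2* without the highest horse at rest was computed after the data were seen.

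Some estimates that were never called changed sign between settings. *IL1B* in the validation set was -0.0084 with normexp, -0.00038 with quantile normalisation, -0.0029 with the series values, -0.0062 with averaged probes, -0.12 with scan day and -0.02 with sex as a term, and -0.0042 to 0.06 with a horse left out, and in the training set -0.15 to 0.08. The difference between sets was 0.06 for *IL1RN* with averaged probes, 0.17 for *IL1RAP* with normexp and 0.25 with the series values, -0.02 for *IL18* with normexp and -0.00057 with averaged probes, and 0.03 for *IL18R1* with normexp and with the series values. With a horse left out it ran from -0.46 to 1.54 for *IL1R2*, -0.11 to 0.06 for *IL1RN*, -0.81 to 0.21 for *IL1RAP*, -0.21 to 0.02 for *IL1B*, -0.21 to 0.33 for *IL18*, -0.33 to 0.23 for *IL18R1* and -0.73 to 0.34 for *IL18RAP*.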
